A study of Mus musculus with 6 samples.

Results

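Ribosome biogenesis factors are the mostly nucleolar proteins that modify, cut, fold and export the ribosomal RNA precursor. Here 55 of their genes were followed, found by symbol among 29721 listed genes. The tissue was pancreas taken at 3 months of age from 6 Ela-myc mice, each giving 1 library. Parp2 was wild type in 3 of them (WT) and knocked out in the other 3 (PARP2 KO). All 6 animals carry Ela-myc, a Myc transgene under the elastase promoter, which drives Myc in the enzyme-secreting acinar cells and gives rise to pancreatic tumours. The comparison addresses how loss of PARP2, a nuclear enzyme that adds ADP-ribose at DNA breaks, bears on gene expression during tumour development. The extraction protocol in the labels speaks of tumour samples, the tissue label is pancreas and the deposited tables are called preneoplastic, and the sampled region of the organ is not stated in the labels. Every member passed the filter on low counts, so all 55 are among the 17652 genes tested.

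A ribosome begins in the nucleolus, where RNA polymerase I copies the ribosomal DNA into a long precursor. Small nucleolar ribonucleoproteins (snoRNPs) mark the nucleotides to be methylated (box C/D class) or turned into pseudouridine (box H/ACA class). A large assembly, the small-subunit processome, then builds the 40S subunit, while separate factors cut and fold the RNA of the 60S subunit. Myc is well known as an activator of these genes, and cells that grow fast or secrete much protein, such as acinar cells, keep large nucleoli.

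Of the 55 members 50 fell in PARP2 KO and 0 rose by the edgeR quasi-likelihood test at an adjusted p under 0.05, against 25.0% of all tested genes called lower and 28.0% called higher. At an unadjusted p under 0.05 by edgeR the counts were 51 and 0, and the shares of all genes at that threshold are not given here. DESeq2 called 49 and 0 (22.5% and 23.3% of all genes it tested), and limma-voom called 50 and 0 (27.9% and 28.5%). The median log2 fold change (PARP2 KO minus WT) was -0.87 over the members and 0.02 over all tested genes. In library-scaled counts (CPM, each library's counts divided by its TMM-scaled size), 53 of the 55 had each KO library below each WT library, a pattern that 33.7% of all tested genes showed. A fall of at least 1 log2 unit was called for 20 members, or 36.4% of them, against 10.7% of all tested genes. By role, the test called 21 of 21 large-subunit factors lower, 17 of 21 small-subunit factors, 3 of 3 box C/D proteins, 4 of 4 box H/ACA proteins and 5 of 6 general nucleolar proteins. In bulk tissue, fewer cells that hold these transcripts and less of the transcript per cell cannot be told apart.

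**Figure D1:**
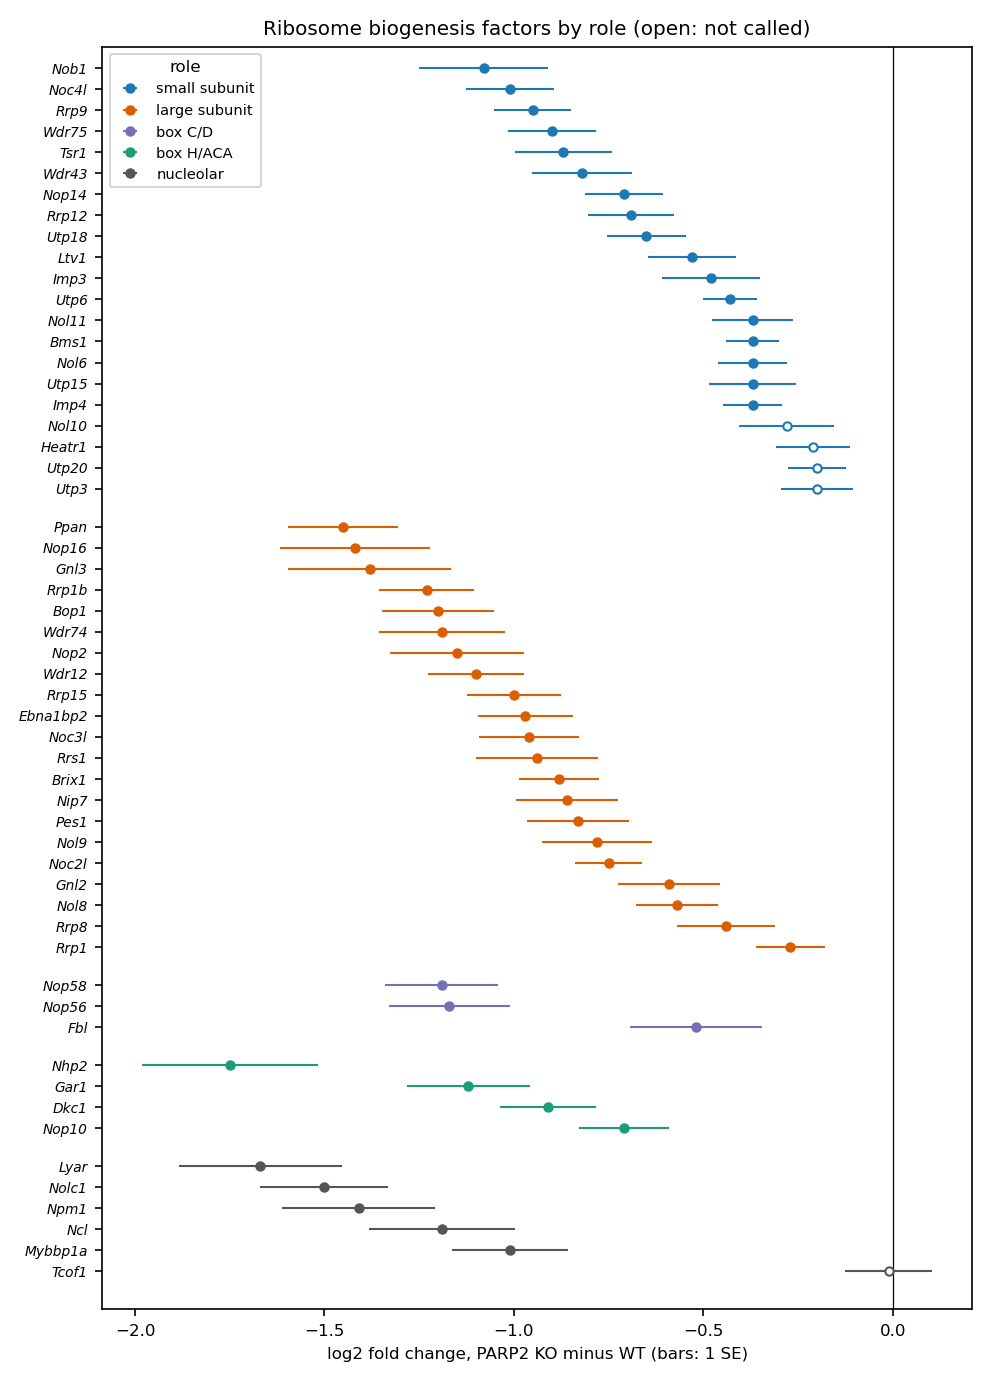
Log2 fold change of each of the 55 members (x axis, PARP2 KO minus WT; bars are 1 SE of the edgeR fit), grouped by role; filled points were called lower and open points were not called. All 21 large-subunit factors lie left of 0 and were called, between -1.45 for Ppan and -0.27 for Rrp1, whereas Nol10, Heatr1, Utp20, Utp3 and Tcof1 are open.

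Before these genes, the targeted gene was checked. Parp2 stood at 40.5, 36.4 and 37.5 CPM in WT and 14.4, 12.4 and 13.6 CPM in PARP2 KO. It was lower in each knockout library (log2 fold change -1.50 with SE 0.097, adjusted p = 0.00201 by edgeR), and the removed stretch of the gene is not stated in the labels. Library totals lay between 28105021 and 32055565 counts. Digestive enzyme genes, the defining acinar markers, took 23.1% to 30.1% of counts in WT but 4.39%, 14.7% and 0.018% in PARP2 KO replicates 1, 2 and 3. For KO replicate 3 the 95% Wilson interval, which covers counting error only, was 0.0176% to 0.0185%. KO replicate 3 therefore nearly lacked the transcripts that define the labelled tissue's main cell type.

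Because the members moved together, their promoters (250 bases before to 50 after the start, RefSeq, GRCm38.p6) were searched for the canonical E-box CACGTG, the core sequence that Myc with Max is known to bind. The motif reads the same on both strands. It occurred in 10 of the 46 members that the table holds (21.7%), in 11.0% of 12487 tested genes and in 7.15% of all 32851 promoters. By role it was found in 7 of 18 small-subunit factors, 2 of 18 large-subunit factors, 1 of 4 general nucleolar proteins and none of the 6 snoRNP proteins with a promoter in the table. Those 5 of the 10 with the highest mean CPM are shown, the E-box in capitals, each on the strand of its gene. Where the E-box lies after the start, at most 30 bases are given. Positions count the start as 1 and the base before it as -1.
Mybbp1a: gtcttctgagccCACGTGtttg
Wdr43: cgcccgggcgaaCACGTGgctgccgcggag
Tsr1: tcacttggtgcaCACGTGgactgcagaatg
Nop2: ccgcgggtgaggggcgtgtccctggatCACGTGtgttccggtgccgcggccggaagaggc
Pes1: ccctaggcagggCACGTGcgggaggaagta

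The Mybbp1a stretch is chr11:72441355-72441376 (plus strand, E-box at 41) and the Wdr43 stretch chr17:71616220-71616249 (plus strand, E-box at 18). That of Tsr1 is chr11:74898092-74898121 (plus strand, 25), that of Nop2 chr6:125131796-125131855 (plus strand, -60) and that of Pes1 chr11:3963965-3963994 (plus strand, 3). The other members with the motif were Utp20, Imp4, Nol11, Utp18 and Ltv1. Of the 10 members with an E-box 9 fell and the median log2 fold change was -0.74. Of the 36 without it in this window 33 fell, with a median of -0.96. That order did not hold within roles. Among small-subunit factors the median was -0.53 with the E-box (7 genes) and -0.48 without it (11 genes). Among large-subunit factors it was -0.99 with the E-box (2 genes) and -0.96 without it (16 genes). Thus members fell with and without these letters in the window, and the match is a description of sequence only.

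Per kilobase of merged exons, the WT levels highest among the 55 members belonged to 2 general nucleolar proteins, Npm1 with 171 CPM and Ncl with 134 CPM. Ncl (ENSMUSG00000026234, chromosome 1, 86344719 to 86359400, GRCm38) encodes nucleolin, an RNA-binding protein of the nucleolus that takes part in ribosomal DNA transcription and precursor processing. It stood at 1443, 1408 and 1250.0 CPM in WT and at 558, 752 and 490.2 CPM in PARP2 KO. The genotypes did not overlap, and KO replicate 2 was nearest to WT. The log2 fold change was -1.19 (SE 0.192, edgeR adjusted p = 0.00461), so that knockout held 43.9% of the WT level.

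Npm1 (chromosome 11, 33152287 to 33163206) encodes nucleophosmin, the chaperone that shapes the granular part of the nucleolus where 60S particles mature. Its levels were 478, 460.5 and 429 CPM in WT against 156, 225 and 135 CPM in PARP2 KO. All 3 KO libraries lay far below WT, again with replicate 2 highest (log2 fold change -1.41 with SE 0.201, adjusted p = 0.00341 by edgeR). Of the 50-base windows of its longest coding transcript, 40.9% also occur in another gene's transcript, so part of its reads could be lost or shared.

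Nolc1 (chromosome 19, 46075863 to 46085530) encodes Nopp140, a phosphoprotein that chaperones snoRNPs. It fell from 244, 210.4 and 203 CPM to 70.7, 96.4 and 65.8 CPM (log2 fold change -1.50 with SE 0.169, adjusted p = 0.00228 by edgeR). Lyar, which encodes a zinc finger protein of the nucleolus known from growing and undifferentiated cells, fell from 86.6, 82.7 and 75.3 CPM to 21.9, 34.5 and 20.3 CPM. Its log2 fold change of -1.67 (SE 0.215) was the largest fall among the 6. Mybbp1a, whose product binds Myb and takes part in precursor processing, fell from a mean of 323 ± 25.2 to 160.0 ± 30.7 CPM (SD of 3 libraries each; a log2 fold change -1.01, SE 0.154). In these genes too the groups did not overlap.

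Tcof1 stood apart. It encodes treacle, the nucleolar scaffold that recruits RNA polymerase I, and is related in its repeats to Nopp140. Its levels were 94.0, 80.9 and 80.8 CPM in WT and 78.4, 79.3 and 96.1 CPM in PARP2 KO, so the genotypes overlapped and the highest of the 6 libraries was KO replicate 3. The mean was 85.2 ± 7.61 CPM in WT and 84.6 ± 9.98 CPM in PARP2 KO (SD of 3 libraries each; a log2 fold change -0.01 with SE 0.115, adjusted p = 0.941 by edgeR). It was the member with the smallest absolute change.

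Box C/D snoRNPs carry the methyltransferase fibrillarin (Fbl) together with the scaffold proteins of Nop56 and Nop58. Nop58 (chromosome 1, 59684971 to 59719044) stood at 193, 182 and 163 CPM in WT and 72.6, 95.4 and 68.4 CPM in PARP2 KO. Nop56 (chromosome 2, 130274430 to 130279313) stood at 155, 126 and 114.5 CPM in WT and 56.2, 68.3 and 50.9 CPM in PARP2 KO. Both paralogues thus fell to nearly the same degree, with log2 fold changes of -1.19 (SE 0.149) and -1.17 (SE 0.159).

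Fbl (chromosome 7, 28169710 to 28179269) fell less, from 12.6, 11.9 and 10.4 CPM to 6.89, 9.75 and 7.63 CPM (log2 fold change -0.52 with SE 0.174, adjusted p = 0.0431 by edgeR). Leaving out any library except KO replicate 2 ended its call (adjusted p up to 0.135). Per kilobase of merged exons the WT mean was 2.76 CPM for Fbl against 32.1 for Nop56 and 16.7 for Nop58, whose proteins work in the same particle. Of the 50-base windows of the Fbl transcript 70.4% also occur in transcripts of other genes, chiefly the gene models Gm5812 and Gm6211, the highest share among the members. Its count therefore rests on the smaller part of the transcript that is its own, if the counting left out reads with several matches, which is not given in the sources used here.

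Box H/ACA snoRNPs hold the pseudouridine synthase dyskerin (Dkc1) with the small proteins of Nhp2, Nop10 and Gar1, and the same proteins sit in telomerase. Nhp2 (ENSMUSG00000001056, chromosome 11, 51619735 to 51623714) had the largest fall of all 55 members. It stood at 108, 103 and 94.1 CPM in WT and at 23.8, 41.9 and 25.3 CPM in PARP2 KO (log2 fold change -1.75 with SE 0.232, adjusted p = 0.00309 by edgeR). Even the highest KO library thus held less than the lowest WT library by a wide margin, and KO replicate 2 lay between WT and the other KO libraries.

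Gar1 (chromosome 3) fell from 46.6 ± 5.82 to 21.4 ± 3.90 CPM (SD of 3 libraries each; a log2 fold change of -1.12, SE 0.162). Dkc1 (chromosome X, 75095854 to 75109777) fell from 124, 114.5 and 108 CPM to 57.7, 72.4 and 55.2 CPM (log2 fold change -0.91, SE 0.126). Nop10 (chromosome 2) fell from 59.8, 57.6 and 48.5 CPM to 30.0, 36.1 and 35.0 CPM (log2 fold change -0.71, SE 0.119). The groups of all 4 genes were apart, and the edgeR adjusted p of each was at most 0.00493. Per kilobase of merged exons, Nhp2 had the highest WT level of the 4, 88.9 CPM against 49.8 for Nop10, 28.1 for Dkc1 and 27.2 for Gar1. In PARP2 KO the mean level was 26.5 CPM per kilobase for Nhp2 and 30.4 for Nop10, although in KO replicate 2 Nhp2 was still above Nop10.

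**Figure D2:**
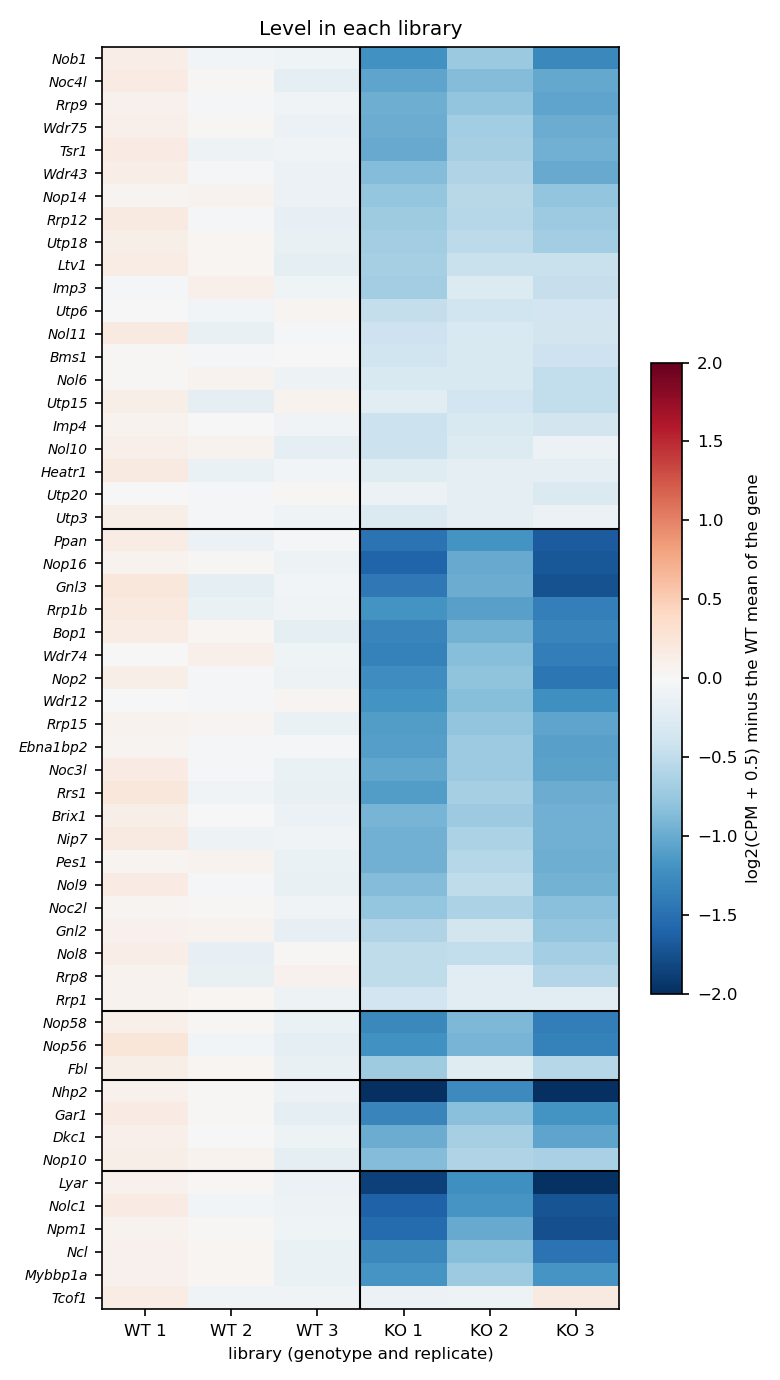
Level of each member (rows, in the same order as the plot of fold changes; black lines separate small-subunit, large-subunit, box C/D, box H/ACA and general nucleolar genes) in each library (columns), as log2(CPM + 0.5) minus the WT mean of the gene. KO replicate 2 is paler than KO replicates 1 and 3 in most rows, and it was the highest of the 3 KO libraries for 47 of 55 members.

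The large-subunit factors included many of the larger falls. Ppan (chromosome 9, 20888175 to 20892178), which encodes a Brix-family assembly factor of early 60S particles, stood at 109, 90.2 and 96.1 CPM in WT and at 35.2, 42.6 and 30.6 CPM in PARP2 KO. It fell most of these 21 (log2 fold change -1.45 with SE 0.145, adjusted p = 0.00208 by edgeR). Nop16, a small 60S assembly factor and known Myc target, went from 60.8, 58.9 and 53.4 CPM to 18.7, 28.4 and 17.4 CPM (log2 fold change -1.42, SE 0.198). Gnl3 (chromosome 14, 31012433 to 31019152) encodes nucleostemin, a GTP-binding protein of the nucleolus of stem and tumour cells. It went from 195, 147 and 160 CPM to 61.2, 83.0 and 49.0 CPM (log2 fold change -1.38, SE 0.215). For each of these genes the highest KO library stayed below the lowest WT library.

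The PeBoW complex, which is needed to process the 5.8S and 28S parts of the precursor, is made of the products of Pes1, Bop1 and Wdr12. Bop1 fell from 129, 119 and 101 CPM to 45.7, 59.9 and 46.1 CPM (log2 fold change -1.20, SE 0.148). Wdr12 had a log2 fold change of -1.10 (SE 0.126) and Pes1 of -0.83 (SE 0.135). All 3 genes were therefore called lower, with a median log2 fold change of -1.10. For Pes1, 21.0% of 50-base windows also occur in other genes' transcripts.

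Paralogues of the yeast factor Rrp1 differed in size of change. Rrp1b (chromosome 17) fell from 80.1, 63.5 and 66.5 CPM to 30.2, 32.6 and 26.6 CPM (log2 fold change -1.23 with SE 0.126, adjusted p = 0.00213 by edgeR). Rrp1 (chromosome 10, 78400384 to 78413043) fell from 141, 137 and 124 CPM to 103, 115 and 116 CPM (log2 fold change -0.27 with SE 0.09, adjusted p = 0.0438 by edgeR), the smallest change of the large-subunit factors. The log2 ratio of Rrp1b to Rrp1 was -0.81, -1.11 and -0.90 in WT and -1.77, -1.82 and -2.12 in PARP2 KO. The ratio was thus lower in each KO library, a difference that was not tested.

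The call of Rrp1 ended without WT replicates 1 or 2 or KO replicates 1 or 3 (adjusted p up to 0.127), and scaled by library totals alone its log2 fold change was 0.13, not called. Nor was Rrp1 called by DESeq2 (adjusted p = 0.0513), which called 20 of the 21 large-subunit factors lower. By edgeR its call also ended without the count filter (adjusted p = 0.084) and with the digestive enzyme covariate (adjusted p = 0.114). Rrp8, which encodes a methyltransferase for a base of the 28S RNA, and Nol8 were the next smallest, with log2 fold changes of -0.44 (SE 0.13) and -0.57 (SE 0.108). The call of Rrp8 ended without WT replicates 1 or 3 or KO replicates 1 or 3 (adjusted p up to 0.108). The other large-subunit factors, among them the GTP-binding protein gene Gnl2, the methyltransferase gene Nop2 and the assembly factor genes Rrs1, Brix1, Ebna1bp2, Nip7, Noc2l, Noc3l, Nol9, Rrp15 and Wdr74, had log2 fold changes between -1.19 and -0.59. Of these only Gnl2 lost its call with a library left out, without KO replicate 1 (adjusted p = 0.0542).

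The small-subunit factors changed less in the median. Nob1 (chromosome 8, 107412486 to 107425051) encodes the nuclease that makes the last cut of the 18S RNA. It stood at 56.3, 49.2 and 48.2 CPM in WT and at 21.8, 30.5 and 20.5 CPM in PARP2 KO (log2 fold change -1.08 with SE 0.17, adjusted p = 0.00428 by edgeR). This was the largest fall of the 21. Noc4l, which encodes the partner of Nop14, fell from 48.1, 43.5 and 37.9 CPM to 20.4, 23.2 and 20.9 CPM (log2 fold change -1.01, SE 0.116). Rrp9, which encodes a protein of the U3 snoRNP, fell from 45.5, 42.1 and 40.9 CPM to 21.6, 24.5 and 20.3 CPM (log2 fold change -0.95, SE 0.102). Tsr1, which encodes an inactive GTPase-like protein of late 40S particles, fell from 110.1 ± 11.3 to 60.1 ± 8.14 CPM (SD of 3 libraries each; a log2 fold change -0.87, SE 0.128), although 32.3% of its exon bases overlap exons of Srr on the other strand. Its E-box is printed above.

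Proteins of the UTP-A complex, which binds the start of the precursor and links its transcription to processing, are encoded by Wdr75, Wdr43, Nol11, Utp15 and Heatr1. Wdr75 fell from 88.1, 83.9 and 75.8 CPM to 41.0, 50.8 and 41.4 CPM (log2 fold change -0.90, SE 0.116), while the log2 fold change of Wdr43 was -0.82 (SE 0.132). Nol11 and Utp15 had log2 fold changes of -0.37 each (SE 0.106 and 0.116). Heatr1 stood at 100.6, 81.3 and 85.6 CPM in WT and at 74.9, 77.8 and 77.8 CPM in PARP2 KO, and was not called (log2 fold change -0.21 with SE 0.098, adjusted p = 0.109 by edgeR). Subunits of this complex thus ranged from -0.90 to -0.21, and the differences among them were not tested. The calls of Nol11 and Utp15 ended without WT replicates 1 or 3, without KO replicate 3 and, for Nol11 without KO replicate 1 and for Utp15 without KO replicate 2 (adjusted p up to 0.107).

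The small-subunit factors that were not called besides Heatr1 were Nol10, Utp20 and Utp3. Utp20, which encodes a very large scaffold protein, stood at 72.4, 70.8 and 73.4 CPM in WT and at 66.5, 63.1 and 58.8 CPM in PARP2 KO. Its KO libraries lay just below WT (log2 fold change -0.20 with SE 0.077, adjusted p = 0.0663 by edgeR). Utp3 stood at 46.3 ± 3.59 against 40.4 ± 2.47 CPM (SD of 3 libraries each; a log2 fold change -0.20 with SE 0.094, adjusted p = 0.118 by edgeR), and Nol10 at 27.5 ± 2.93 against 22.6 ± 2.48 CPM (log2 fold change -0.28 with SE 0.126, adjusted p = 0.0997 by edgeR). Nol10 was, with Tcof1, the member whose groups overlapped.

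Between these groups lay the genes of the UTP-B proteins Utp18 and Utp6, of the U3-associated proteins Imp3 and Imp4, of the 40S export and assembly factors Rrp12, Ltv1 and Nop14, of the GTPase Bms1 and of the RNA-associated protein Nol6. Their log2 fold changes were between -0.71 for Nop14 and -0.37 for Imp4, Bms1 and Nol6, and all passed the test. The call of Imp3 ended without WT replicates 1 or 2 or KO replicates 1 or 3 and that of Nol6 without WT replicates 1 or 2 (adjusted p up to 0.0743).

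Large-subunit members fell further than small-subunit members in the median, at -0.96 against -0.48 on the log2 scale, which is 51.5% and 71.9% of the WT level. Of 21 large-subunit members 19 fell by more than the small-subunit median, and 2 of 21 small-subunit members fell by more than the large-subunit median. Falls of at least 1 log2 unit were called for 9 of 21 large-subunit and 2 of 21 small-subunit members, against 10.7% of all tested genes. The small-subunit share was thus no higher than that of all genes. Levels in single libraries were taken as log2(CPM + 0.5) minus the WT mean of each gene. On that scale the small-subunit median exceeded the large-subunit median in KO replicates 1, 2 and 3 by 0.44, 0.32 and 0.56. The gap therefore had the same sign in each KO library. In the WT libraries the gaps of -0.01, -0.00 and 0.01 lie near 0 by construction and do not compare the WT levels of the lists. The fitted gap was 0.48 under each of the scalings tried, but a scaling moves all genes nearly alike, so it could hardly change the gap. With the digestive enzyme level as a covariate the gap was 0.37, and with each library left out it was 0.41 to 0.52.

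Among other factors of the same steps, which are not members, the gap between the medians was -0.06. Of 30 other small-subunit factors 26 fell and the median log2 fold change was -0.56, and of 33 other large-subunit factors 23 fell and 1 rose, with a median of -0.49. With library totals 7 of these small-subunit factors fell and 1 rose, and 8 of the large-subunit factors fell and 5 rose, while the digestive enzyme covariate left 17 falls in each list. With members and other factors joined, the medians were -0.54 over 51 small-subunit and -0.68 over 54 large-subunit genes, a gap of 0.14 in place of 0.48. Ribosomal protein genes showed a gap of 0.21, with medians of -0.55 over 32 genes of the small subunit and -0.77 over 46 of the large subunit. As each list was chosen by hand, no test of these gaps was made.

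**Figure D3:**
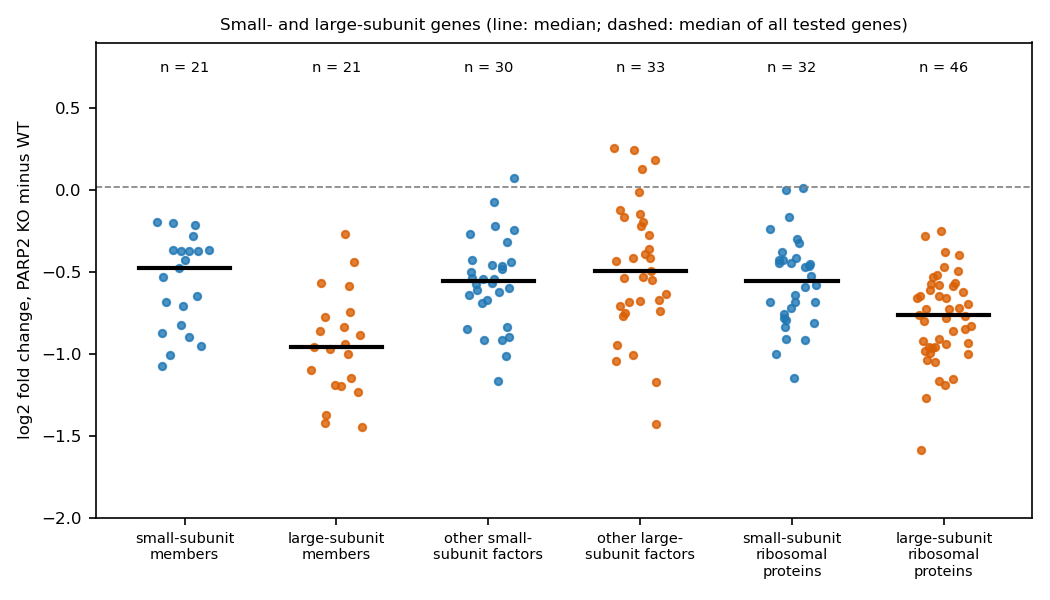
Log2 fold change (y axis, PARP2 KO minus WT) of each tested gene in 6 lists, small-subunit lists in blue and large-subunit lists in orange; thick lines are list medians and the dashed line is the median of all tested genes. The medians of the members are -0.48 and -0.96, whereas those of the other factors, -0.56 and -0.49, nearly coincide.

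Within the other lists of the pathway the same direction prevailed with exceptions. Among other small-subunit factors Wdr46 fell from 50.8 ± 4.05 to 26.9 ± 1.94 CPM, the RNA acetyltransferase gene Nat10 from 90.2 ± 4.52 to 48.5 ± 5.16 CPM, and the UTP-B gene Tbl3 from 62.7 ± 6.50 to 31.0 ± 4.49 CPM (SD of 3 libraries each). Among other large-subunit factors Mrto4, Pelp1 and Wdr18 fell, with log2 fold changes of -1.43 (SE 0.178), -0.95 (SE 0.115) and -0.75 (SE 0.098). The products of Pelp1 and Wdr18 belong to the rixosome, which works in 60S maturation. Sbds, whose product helps release the last block to subunit joining in the cytoplasm, rose from 49.2, 45.8 and 45.2 CPM to 56.7, 56.4 and 54.2 CPM (log2 fold change 0.26 with SE 0.074, adjusted p = 0.0284 by edgeR). That call ended without WT replicates 2 or 3 or KO replicate 1 (adjusted p up to 0.105) and with the digestive enzyme level as a covariate.

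Of 15 genes of RNA polymerase I transcription 10 fell and 2 rose. With library totals 6 fell and 3 rose, and with the digestive enzyme covariate 6 fell and 1 rose. Polymerase subunit genes were among the falls, with Polr1b at 83.9 ± 5.90 against 35.7 ± 6.88 CPM, Polr1e at 29.6 ± 1.81 against 13.3 ± 1.19 CPM and Cd3eap at 27.8 ± 1.55 against 11.9 ± 2.53 CPM (SD of 3 libraries each). The rises were Ttf1, which encodes the factor that ends ribosomal DNA transcription, from 22.0 ± 1.24 to 31.2 ± 2.77 CPM, and Taf1b, a gene of the promoter selectivity factor, from 15.8 ± 0.407 to 21.0 ± 0.591 CPM. The call of Ttf1 ended with the digestive enzyme level as a covariate. Of 10 snoRNP assembly genes 8 fell, among them the AAA ATPase genes Ruvbl1 and Ruvbl2 (log2 fold changes -1.11 and -1.03, SE 0.118 each) and Naf1 (-1.26, SE 0.187). Of 13 genes of the nuclear exosome, which trims precursor ends, 9 fell, among them the nuclease gene Dis3 (-0.90, SE 0.087), Exosc7 (-0.96, SE 0.101) and Exosc1 (-0.80, SE 0.094). With library totals 4 snoRNP assembly genes fell and 1 rose, and 5 exosome genes fell and 1 rose, and with the covariate 5 and 6 fell.

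Of 78 cytosolic ribosomal protein genes, whose products the members put together, 63 fell and 0 rose by edgeR, with 66 and 0 at an unadjusted p under 0.05, 63 and 0 by DESeq2 and 64 and 0 by limma-voom. Their median log2 fold change was -0.69, and fewer fell without WT replicate 1 (40), WT replicate 2 (40) or KO replicate 1 (35), with library totals (26) or with the digestive enzyme covariate (27). Rpl13a fell from 82.3 ± 4.60 to 27.4 ± 6.78 CPM, Rpl10a from 51.0 ± 5.83 to 23.0 ± 1.68 CPM and Rpl5 from 32.4 ± 3.52 to 16.7 ± 1.14 CPM (SD of 3 libraries each). In 65 of these 78 genes over 20 percent of 50-base windows occur in another gene's transcript, against 4 of the 55 members, so their counts are less certain than those of the members.

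Library by library, the median of the members' differences from the WT mean was -0.96, -0.66 and -0.98 log2 units in KO replicates 1, 2 and 3. KO replicate 2 was the highest KO library for 47 members and the lowest for none of the 55. KO replicate 3 was the lowest for 31 and KO replicate 1 for 24. Each KO library had at least 54 of the 55 members below the WT mean. In WT, replicate 1 was the highest of the 6 libraries for 45 members. Over the 55 genes together, members took 0.516% to 0.560% of all counts in WT and 0.356% to 0.396% in PARP2 KO.

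Several other measures moved with this order. Myc stood at 256, 266 and 391 CPM in WT and at 83.4, 177 and 51.4 CPM in PARP2 KO (log2 fold change -1.55 with SE 0.476, adjusted p = 0.0366 by edgeR), so KO replicate 2 was again the nearest to WT. Leaving out any library except KO replicate 2 also ended the Myc call (adjusted p up to 0.12), and without KO replicate 2 its log2 fold change was -2.18. The Myc call ended too with library totals (-1.22, adjusted p = 0.0561 by edgeR), without the count filter (-1.53, adjusted p = 0.101) and with the digestive enzyme covariate (-0.94, adjusted p = 0.0896). Whether reads of the transgene are in its count was not tested. WT replicate 3 had the most Myc but the lowest median of the members in WT, at -0.10 against 0.11 and -0.01. Digestive enzyme shares followed the order 4.39%, 14.7% and 0.018% in KO replicates 1, 2 and 3, yet KO replicates 1 and 3 had nearly equal member medians. The part of these measures in the members' fall was not tested.

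**Figure D4:**
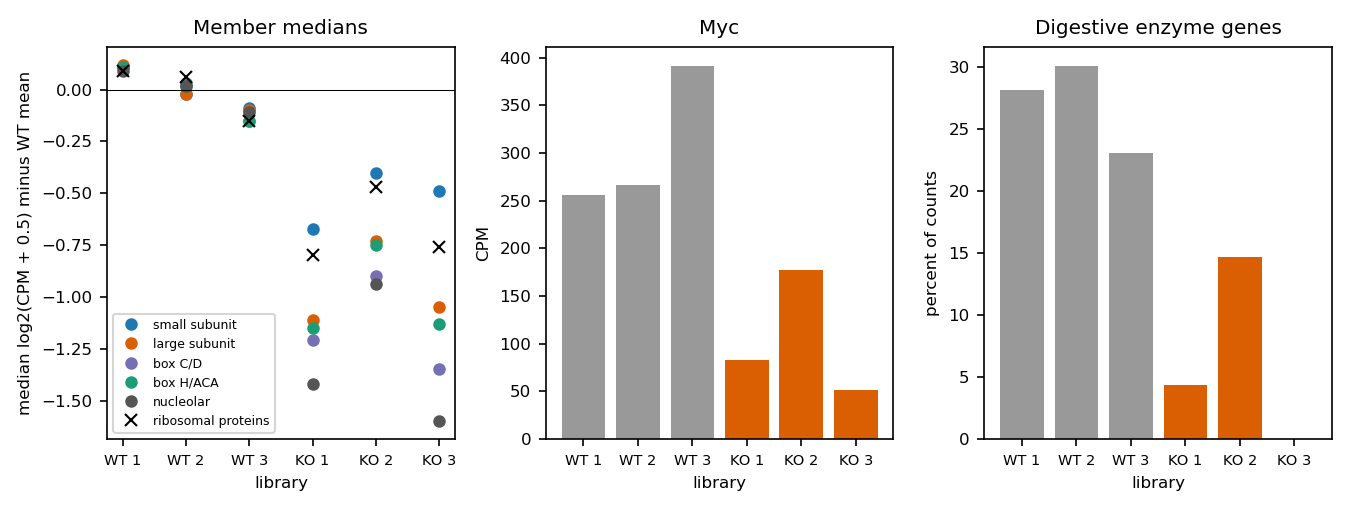
By library: median of each role's members and of the ribosomal protein genes as log2(CPM + 0.5) minus the WT mean (left), Myc in CPM (middle) and the share of counts from digestive enzyme genes in percent (right; the bar of KO replicate 3, 0.018%, is too low to see). In the left panel point colour gives the role; in the bar panels grey is WT and orange PARP2 KO; KO replicate 2 is the highest KO library in all 3 panels.

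Markers of other cells changed too. Summed over 26 digestive enzyme genes the level ran from 239162 to 363218 CPM in WT and from 149 to 140165 CPM in PARP2 KO. By edgeR 0 of the 26 were called lower, with 0 at an unadjusted p under 0.05 and 2 each by DESeq2 and limma-voom, and the KO libraries were unlike each other. Fat cell markers rose in 12 of 12 genes (summed 1087 to 2460 CPM in WT, 12964 to 16990 CPM in PARP2 KO), T cell markers in 12 of 12 (88.6 to 224 against 525 to 1272 CPM) and B cell markers in 10 of 10 (457 to 868 against 2883 to 4290 CPM). The T cell count was 8 without WT replicate 3. It was 9 without WT replicate 1, without KO replicate 1 or with the digestive enzyme covariate. The lowest counts over the alternatives were 11 for fat cell and 9 for B cell markers. Endothelial markers rose in 7 of 8 (329 to 373 against 810.0 to 930 CPM). Macrophage markers summed to 2131 to 2424 CPM in WT and 3044 to 3596 CPM in PARP2 KO (2 of 10 higher, 1 lower). Their median log2 fold change was -0.01, within a range of -0.52 to 3.76. Neither share exceeded that of all genes, 28.0% higher and 25.0% lower. Fibroblast markers summed to 4383 to 4966 and 2845 to 4004 CPM (1 of 8 higher, 3 lower). The share lower was 37.5% against 25.0% of all genes, and the share higher was below the 28.0% of all genes. The median log2 fold change of the fibroblast list was -0.15, within a range of -1.21 to 0.78. Duct markers summed to 1209 to 1859 CPM in WT and 12.7 to 523 CPM in PARP2 KO, and 3 of 6 fell. That count was 0 without any 1 of WT replicates 1 to 3 or KO replicate 1, 5 without KO replicate 2, 4 without KO replicate 3 and 5 by limma-voom. Islet markers summed to 1418 to 3370 and 3.14 to 600.5 CPM, and 2 of 8 fell, a share no higher than the 25.0% of all genes. Their count was 1 without any 1 of WT replicates 1 to 3 or KO replicate 1, 3 without KO replicate 2, 6 without KO replicate 3 and 5 by limma-voom. Markers of dividing cells fell in 12 of 12 (1086 to 1248 against 476 to 593 CPM), with library medians of -1.54, -1.24 and -1.20 in PARP2 KO. No marker was at 0 in any library, and the part of these shifts in cell make-up in the members' values was not tested.

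With the digestive enzyme level as a covariate in the edgeR fit, 40 of the 55 members fell, 18 of 21 large-subunit and 11 of 21 small-subunit, and the members' median was -0.75. That fit called 14.7% of all genes lower and 18.3% higher, and the covariate did not overlap between genotypes. Without KO replicate 3, the library nearly free of acinar transcripts, 44 members fell and 0 rose, against 20.4% and 23.5% of all genes, and the members' median was -0.81. Scaling by library totals alone moved the median of all tested genes up by 0.40 on the log2 scale. Under it 35 members fell and 0 rose, where 12.2% of all genes were lower and 42.3% higher, and the falls took in 17 large-subunit and 7 small-subunit factors. Relative to the median of all tested genes the members' median was -0.89 with TMM and -0.90 with library totals. As a scaling moves all genes nearly alike, these values were bound to be close and do not test the fall. With library totals the remaining pathway lists kept a negative median except RNA polymerase I transcription, whose median was 0.04.

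Across the 55 members the log2 fold change had a Spearman correlation of 0.21 with merged exon length and of -0.36 with mean CPM per kilobase. Within roles these values were 0.39 and -0.24 over the 21 small-subunit members and 0.08 and -0.05 over the 21 large-subunit members. All are given as descriptions over genes that share the same 6 libraries. The members lie on 19 chromosomes, with 8 on chromosome 11 and 7 on chromosome 1. Small nucleolar RNA genes lie inside Nop56 (5), Nop58 (4), Ncl (3), Gnl3 (3), Wdr43 (3), Ppan (2), Tsr1 (2) and Dkc1 (1). All 8 host genes fell, which is near the 90.9% of all members that did, so it does not set host genes apart. Exon overlap with another gene on the same strand was at most 8.0% of exon length, in Nop56, and lay with its small nucleolar RNA genes.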

How the data were processed

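Stranded mRNA libraries of total pancreas RNA were sequenced, per the labels' protocols, from 3 WT and 3 PARP2 KO animals. The authors deposited whole-number read counts per Ensembl gene, not normalized, and a table of log2 values, which matched log2 of the counts over DESeq2 size factors plus 1 (largest difference 5.2e-14), so only the counts entered tests. GRCm38 (mm10) is the build in the submitters' processing notes, which list 3 tools without roles: STAR 2.5.3a, DESeq2 1.28.1 and FastQC 0.11.5. How reads were counted, on which strand, and what became of those matching several genes is not given in the sources used here, so overlapping or copied genes have uncertain counts.

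Genotypes were compared by the edgeR 4.0.16 quasi-likelihood test (R 4.3.3; TMM, robust, default filter, genotype alone), fitted across all genes, with Benjamini-Hochberg adjustment and 0.05 as the threshold. SE is the size of the log2 fold change over the square root of F. The procedure was tested on simulated counts. No libraries of 1 genotype agreed within sampling noise (chi-square per degree of freedom 29.1 to 461). P-values rest on the spread among 3 animals a genotype.

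Members and lists were chosen with earlier results of these data known. Named in full were Parp2, Myc, the snoRNP and general nucleolar members, the 5 largest and 3 smallest changes of small- and of large-subunit members, members not called, and in each other list the 3 genes of smallest p and up to 2 that rose. Genes named for UTP-A, UTP-B and PeBoW were grouped after their values were seen. Of the list genes, Diexf and Mtrex were matched through synonyms and Exosc6 is not analysed here. Gene overlap, exon length and copies came from GENCODE vM21 (GRCm38), in which all 55 members have the deposited positions. Alternatives were other scalings, no filter, DESeq2 1.42.0, limma-voom (limma 3.58.1), an acinar covariate and leaving out each library.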

Additional observations from a re-analysis of the deposited data

How the results depend on the processing

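Of 55 members, 35 were lower in the main test and in all 13 alternatives: 17 large-subunit, 7 small-subunit, 4 box H/ACA, 2 box C/D and 5 general nucleolar genes. The share of all genes under this rule is not given here. It can be no higher than the 12.2% of all tested genes that were lower with library totals. With library totals as the only scaling, 7 small-subunit members fell in place of 17, and over all genes 2160 were lower and 7475 higher in place of 4415 and 4938, so that 77.6% of calls were higher against 52.8%. There the log2 fold change was 0.03 for Nol11, Bms1, Nol6, Utp15 and Imp4, 0.13 for Nol10 and Rrp1, 0.19 for Heatr1, 0.20 for Utp20, 0.21 for Utp3 and 0.40 for Tcof1, none of them called. With the digestive enzyme level as a covariate the calls of Imp3, Nol11, Bms1, Nol6, Utp15, Imp4, Gnl2, Rrp8, Rrp1 and Fbl ended, 11 small-subunit members fell, and over all genes 2588 were lower and 3222 higher; the cause was not tested. Tcof1 was at 0.00 without the count filter and between -0.10 and 0.06 with each library left out. With each library left out, members lower numbered 43 to 49, small-subunit 13 to 16 and large-subunit 18 to 21, the gap of medians was 0.41 to 0.52, and over all genes 2543 to 5032 were lower and 3602 to 5125 higher, the lowest counts without KO replicate 1. No paired analysis was possible because the labels number the animals without linking WT to KO. No alternative at lower depth was run.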
